A study of Rattus norvegicus with 24 samples.

Results

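The 5 genes described here carry corticosteroid signals to sodium transport in the kidney, namely Hsd11b1, Hsd11b2, Nr3c1, Sgk1 and Scnn1a. They were chosen by gene symbol. The array lists 10 probe IDs for them, and 5 of these held values, 1 per gene, out of 1561 probes with values among 3502 probe IDs. Kidney RNA came from strain 13 on high salt (HS), strain 13 on low salt (LS), SS rats on HS and SS rats on LS, all after 2 weeks. SS is the salt-sensitive rat, and strain 13 has the SS genome with chromosome 13 exchanged for that of the Brown Norway rat. That reading of the strain and diet names comes from what is known of the study, and its title speaks of the renal medulla although the tissue is labelled kidney. Each of 24 two-colour cDNA arrays held 2 of these RNAs. The comparisons were HS over LS in strain 13, HS over LS in SS, strain 13 over SS on HS, and strain 13 over SS on LS, with 3 replicates each and a forward and a dye-swap array per replicate. The sources used here give no age, sex or number of animals behind an RNA, and replicates may be technical, so that p-values cover no more than the spread among these RNAs.

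Values are the deposited log ratios. Their log base is not stated, so no fold is printed, and a ratio gives no level of a gene in either RNA. A positive value means higher on HS or in strain 13. This direction is likely rather than settled. Strain array titles give the channels, with strain 13 ahead of SS on forward arrays and behind it on dye-swap arrays. The 1 diet title that gives channels is of a dye-swap array and puts LS ahead of HS. HS and strain 13 are on top if the channel given first is the numerator and dye-swap ratios were already turned. Against this, every title opens with LS ahead of HS. The 4 comparisons closed only with these relative signs (r = 0.65 across 1006 probes as labelled, against -0.23, 0.17 and 0.29 with signs turned, probes not being independent replicates). What remains is that every sign turns at once. Arrays held 726 to 1402 probes with a value. The forward array of replicate 1 on LS in the strain comparison held the fewest values and the widest spread of all arrays. No call of the 5 genes changed without it, and the larger moves are given beside the results. The probes for Nr3c1 and Scnn1a had values on 23 of the 24 arrays and lacked one on the dye-swap array of SS diet replicate 1, which therefore rests on its forward array for these genes. As the files give ratios, the labelled tissue could not be checked by marker levels, and 10 of 20 listed proximal tubule markers, 2 of 7 principal cell markers and 4 of 7 thick limb and distal tubule markers were measured.

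In the kidney, corticosterone, the main glucocorticoid of the rat, can occupy the mineralocorticoid receptor as well as the glucocorticoid receptor. The dehydrogenase encoded by Hsd11b2 inactivates it in the distal nephron and collecting duct, which leaves the mineralocorticoid receptor to aldosterone. The reductase encoded by Hsd11b1, in the rat kidney best known from the proximal tubule, turns the inactive steroid back into corticosterone. Nr3c1 encodes the glucocorticoid receptor. Sgk1 encodes a kinase induced by both receptors, which keeps the epithelial sodium channel (ENaC) at the cell surface, and Scnn1a encodes the alpha subunit of that channel. In the RefSeq annotation of rat assembly GRCr8, Hsd11b1 lies on chromosome 13, the chromosome exchanged between the strains. Hsd11b2 lies on chromosome 19, Nr3c1 on chromosome 18, Sgk1 on chromosome 1 and Scnn1a on chromosome 4.

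Start regions of the receptor and of its kinase target are shown because they are the regulatory sequences at hand for the axis. The RefSeq promoter table (GRCr8) held entries for 2 of the 5 genes, Nr3c1 and Sgk1, and 1 entry of each is printed 5′ to 3′. Each runs from 250 bases before to 50 bases after a transcript start, on the minus strand. That of Nr3c1 is chr18:31613390-31613689 and that of Sgk1 is chr1:24804782-24805081. Capitals mark the GC box core GGGCGG and the TATA box core TATAAA, each read on either strand.
Nr3c1: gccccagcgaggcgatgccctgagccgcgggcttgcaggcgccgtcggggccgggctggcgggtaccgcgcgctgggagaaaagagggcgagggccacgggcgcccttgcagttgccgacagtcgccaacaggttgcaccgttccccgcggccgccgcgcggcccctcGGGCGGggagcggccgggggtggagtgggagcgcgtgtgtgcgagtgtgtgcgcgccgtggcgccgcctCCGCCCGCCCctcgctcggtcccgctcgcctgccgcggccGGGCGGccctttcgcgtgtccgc
Sgk1: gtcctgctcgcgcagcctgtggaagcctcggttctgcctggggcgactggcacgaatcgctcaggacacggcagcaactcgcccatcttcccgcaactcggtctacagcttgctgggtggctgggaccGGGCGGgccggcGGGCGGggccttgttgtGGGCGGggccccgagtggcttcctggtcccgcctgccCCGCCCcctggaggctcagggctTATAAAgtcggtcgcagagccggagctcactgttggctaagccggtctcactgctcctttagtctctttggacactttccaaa
The Nr3c1 region was 79.0% G or C and held 4 GC box cores, of which 2 overlap, and no TATAAA. The Sgk1 region was 66.0% G or C and held 4 GC box cores and 1 TATAAA. These entries were picked with their counts known and hold the most GC box cores of each gene. The other Nr3c1 entry held 1 GC box core and no TATAAA, and the other Sgk1 entries held 2 GC box cores with no TATAAA, and 0 GC box cores with 1 TATAAA. Searched on both strands, GGGCGG was found in 33.1% and TATAAA in 14.2% of the 33469 promoters of the table. AGAACA, an element known to bind the glucocorticoid receptor and searched likewise, was in none of the 5 promoter entries of these 2 genes and in 20.7% of all promoters. These letters describe the reference assembly, and the arrays measured neither promoter.

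**Figure D1:**
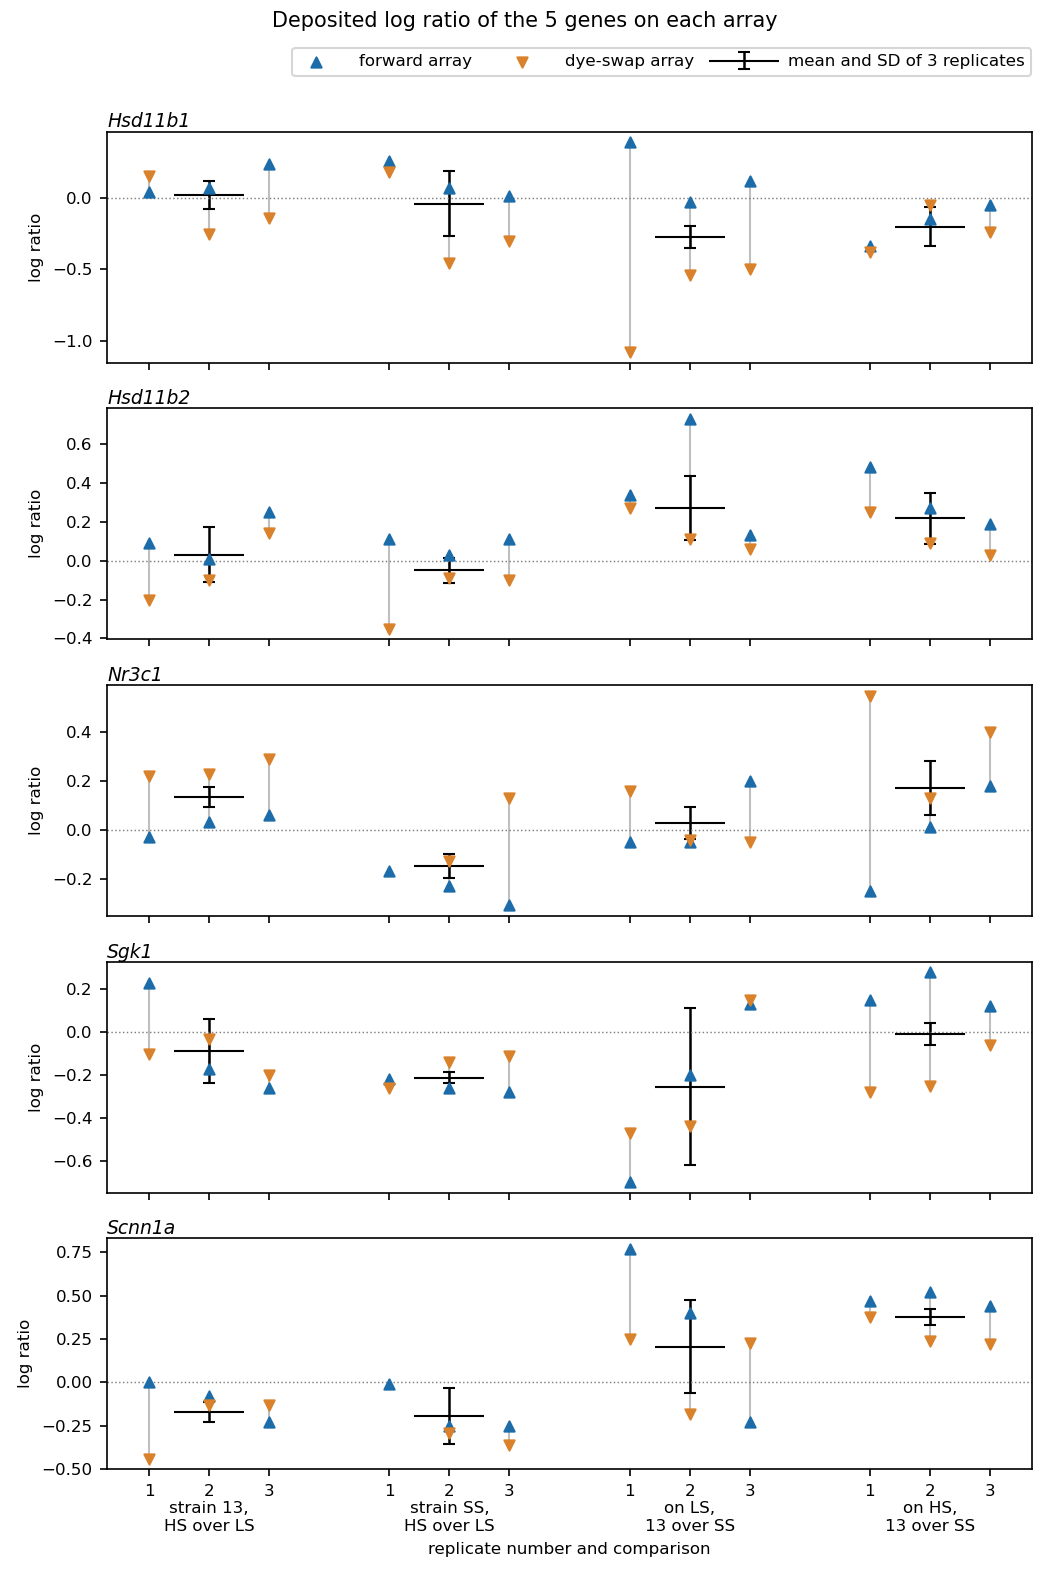
Deposited log ratio (y axis, log base not given) of each of the 5 genes on every array, by replicate and comparison (x axis). Triangles are the forward and dye-swap arrays of a replicate, joined by a line, and horizontal bars with whiskers are the mean and SD of the 3 replicates. Hsd11b2 and Scnn1a were above 0 on all 6 strain arrays on HS, and Sgk1 was below 0 on all 6 diet arrays of SS.

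Hsd11b1, the enzyme that regenerates corticosterone, had log ratios of -0.36, -0.10 and -0.14 in replicates 1 to 3 of strain 13 over SS on HS, and of -0.34, -0.28 and -0.19 on LS. All 6 replicates lay below 0, and a common sign of the 3 replicates was seen in 48.2% of probes on HS and 44.1% on LS. The means were -0.20 ± 0.14 on HS and -0.27 ± 0.08 on LS (SD, n = 3 each). By limma neither passed Benjamini-Hochberg adjustment at 0.05 (adjusted p = 0.190 on HS and 0.116 on LS).

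Hsd11b2, the enzyme that inactivates corticosterone, had log ratios of 0.36, 0.18 and 0.11 in strain 13 over SS on HS, and of 0.30, 0.42 and 0.10 on LS. All 6 replicates, and all 12 of the arrays behind them, lay above 0. The means were 0.22 ± 0.13 on HS and 0.27 ± 0.16 on LS (SD, n = 3 each), again short of the limma threshold (adjusted p = 0.135 and 0.112). So the enzymes of opposite action had strain ratios of opposite sign on both diets.

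Averaged over the diets in the same fit, a comparison added after the data were seen, both enzymes passed. Hsd11b1 was lower in strain 13 by limma, at -0.24 (95% interval -0.37 to -0.10, adjusted p = 0.0246, below 0 in 6 of 6 replicates). Hsd11b2 was higher, at 0.25 (95% interval 0.12 to 0.37, adjusted p = 0.0180, above 0 in 6 of 6 replicates). Of the 5 genes, 3 passed here, the third being Scnn1a, while 15% of the 1203 probes tested did (8.73% higher and 6.32% lower). These were 105 higher and 76 lower probes, against 81 and 93 with each array centred on its median. Replicates of both diets lay all on one side of 0 for 21.9% of 1047 probes. The Hsd11b1 call was lost without replicate 1, 2 or 3 (limma adjusted p = 0.195, 0.0786 and 0.0734), at ratios of -0.18, -0.26 and -0.27. The Hsd11b2 call was lost without replicate 1 or 2 (limma adjusted p = 0.146 and 0.0881), at ratios of 0.20 and 0.22. On dye-swap arrays alone Hsd11b2 had 0.14 and did not pass (limma adjusted p = 0.156).

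The Hsd11b1 ratio depended on the dye orientation on LS. Its forward arrays gave 0.39, -0.03 and 0.12 (mean 0.16), and its dye-swap arrays gave -1.08, -0.54 and -0.50 (mean -0.71). Such a gap of 0.87 was reached by 0.610% of 656 probes, whose median gap was 0.20. On HS the orientations lay close together for Hsd11b1, at -0.18 on forward and -0.22 on dye-swap arrays. With forward arrays alone the ratio averaged over the diets was -0.01 (limma adjusted p = 0.930). Without the sparse array, one of those forward arrays, the LS ratio was -0.52 (limma adjusted p = 0.102) and the ratio averaged over the diets was -0.36 (limma adjusted p = 0.0379).

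On a diet change neither enzyme moved in a common direction. Hsd11b1 had 0.10, -0.09 and 0.05 for HS over LS in strain 13 and 0.22, -0.20 and -0.14 in SS. Hsd11b2 had -0.06, -0.04 and 0.20 in strain 13 and -0.12, -0.03 and 0.01 in SS. The replicates of each fell on both sides of 0 in both strains. The difference Hsd11b2 minus Hsd11b1 of the log ratios averaged 0.42 ± 0.26 for strain 13 over SS on HS and 0.55 ± 0.23 on LS, and 0.01 ± 0.15 and -0.01 ± 0.29 for the diet in strain 13 and in SS (SD, n = 3). It was above 0 in all 6 strain replicates, which follows from the signs of the 2 genes and adds nothing to them. Its lowest value was 0.26 (replicate 3 on HS) and its highest 0.72 (replicate 1 on HS). On LS it carries the dye gap of Hsd11b1 (0.16 on forward and -0.71 on dye-swap arrays, against 0.40 and 0.15 for Hsd11b2). Across the 12 RNA pairs the 2 enzymes had a Pearson correlation of -0.71, a description over pairs that share strains and possibly RNAs.

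**Figure D2:**
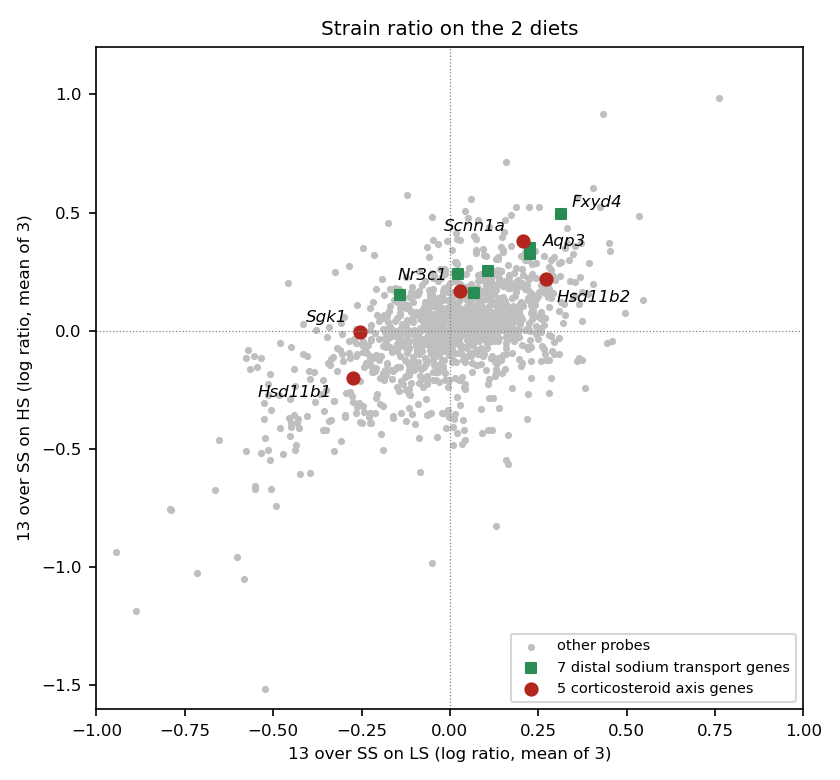
Log ratio of strain 13 over SS on LS (x axis) and on HS (y axis), mean of 3 replicates per probe, for 1203 probes tested in both. Red circles are the 5 genes and green squares are the 7 measured genes of the distal sodium transport list, among them the water channel Aqp3. Hsd11b1 lies in the lower left, at -0.27 and -0.20, and Hsd11b2 (0.27 and 0.22) and Scnn1a (0.21 and 0.38) in the upper right.

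Nr3c1, the glucocorticoid receptor, had diet ratios of opposite sign in the strains. HS over LS gave 0.10, 0.13 and 0.17 in strain 13 and -0.17, -0.18 and -0.09 in SS. All replicates of strain 13 lay above 0 and all of SS below it, with no overlap. A common sign of the 3 replicates was seen in 31.5% of probes in strain 13 and 41.6% in SS. Replicates lay wholly on opposite sides of 0 in the 2 strains for 3.25% of 1107 probes, and did not overlap for 13.9%, with strain 13 higher for 7.14%.

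The means were 0.13 ± 0.04 in strain 13 and -0.15 ± 0.05 in SS (SD, n = 3 each). Neither passed by limma (adjusted p = 0.554 in strain 13 and 0.226 in SS). Each rested on one dye orientation. In strain 13 the forward arrays averaged 0.02 and the dye-swap arrays 0.25. In SS the forward arrays averaged -0.24 and the dye-swap arrays 0.00, the latter from 2 arrays at -0.13 and 0.13. Gaps as large were common, reached by 39.4% of 880 probes in strain 13 and 40.0% of 785 probes in SS. The diet change of strain 13 minus that of SS, estimated from the diet arrays and again from the strain arrays, was 0.21 (95% interval 0.08 to 0.35), at an unadjusted p of 0.00530 and a limma adjusted p of 0.119. It thus did not pass, and was 0.10 on forward and 0.29 on dye-swap arrays alone (limma adjusted p = 0.631 and 0.239). The diet arrays gave 0.26, 0.31 and 0.26 for replicates 1 to 3, and the strain arrays gave 0.10, 0.12 and 0.21. All 6 estimates were above 0. For the diet arrays this follows from the lack of overlap given above and adds nothing to it. For the strain arrays it depends on matching by replicate number, as the lowest HS ratio was 0.07 and the highest LS ratio 0.075. Diet and strain arrays may also share RNAs, so these need not be 6 independent estimates. The share of all probes with such a common sign was not counted. With same-numbered arrays solved together as sharing RNAs, the difference was again 0.21 (limma adjusted p = 0.396). The replicate 3 strain arrays of both diets share a title text that may mark a batch, and within it the estimate was 0.21.

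In strain 13 over SS, Nr3c1 had 0.15, 0.07 and 0.29 on HS and 0.06, -0.04 and 0.07 on LS. The HS replicates all lay above 0 and the LS replicates did not. Their means were 0.17 ± 0.11 on HS and 0.03 ± 0.06 on LS (SD, n = 3 each; limma adjusted p = 0.128 and 0.811), the LS mean being 0.06 without the sparse array. The HS value rested on the dye-swap arrays, which averaged 0.36, while the forward arrays averaged -0.02. A gap as large was reached by 39.3% of 1057 probes.

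None of the 5 genes passed in the test of the diet change between strains, in which 0.43% of 1164 probes passed (3 higher and 2 lower, against 3 and 1 with arrays centred on the median, and 8 in all with the replicate number as a block), and 1 of them, Nr3c1, had an unadjusted p below 0.05, as did 15.6% of probes. The other estimates were 0.19 for Sgk1 (95% interval -0.05 to 0.42), 0.10 for Scnn1a (-0.10 to 0.30), 0.06 for Hsd11b1 (-0.13 to 0.26) and 0.01 for Hsd11b2 (-0.16 to 0.19). Each of these intervals included 0. Without the sparse array the Hsd11b1 estimate was 0.19 and that of Nr3c1 0.19 (limma adjusted p = 0.546 and 0.184).

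**Figure D3:**
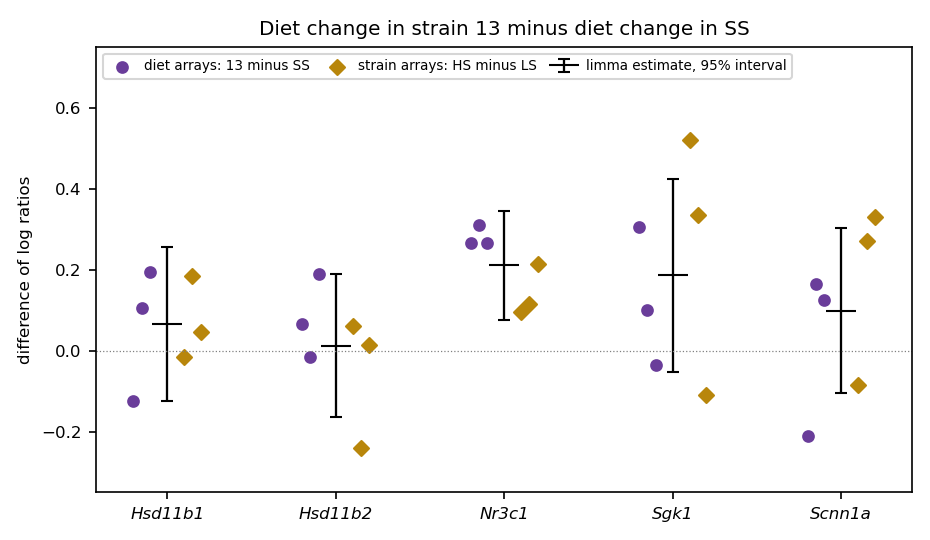
Diet change (HS over LS) in strain 13 minus that in SS, as a difference of log ratios (y axis), for the 5 genes (x axis). Circles come from the diet arrays and diamonds from the strain arrays, 3 replicates each, and bars with whiskers are the limma estimate with its 95% interval. All 6 points of Nr3c1 lie above 0, which for its circles follows from diet replicates that do not overlap between the strains. Those of the other genes lie on both sides.

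Sgk1, the kinase that acts on ENaC, was below 0 on every diet array of SS. HS over LS gave 0.07, -0.10 and -0.23 in strain 13 and -0.24, -0.20 and -0.20 in SS. The strain 13 replicates spread across 0, and the SS replicates lay close together. The means were -0.09 ± 0.15 in strain 13 and -0.21 ± 0.02 in SS (SD, n = 3 each). Neither passed by limma (adjusted p = 0.831 and 0.309).

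For strain 13 over SS, Sgk1 had -0.07, 0.01 and 0.03 on HS and -0.58, -0.32 and 0.14 on LS. Replicate 3 on LS lay above 0 and the others well below it, on both of their arrays. The LS replicates ranged more widely than those of any of the other 4 genes in any comparison. The means were -0.01 ± 0.05 on HS and -0.26 ± 0.37 on LS (SD, n = 3 each; limma adjusted p = 0.986 and 0.193).

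Scnn1a, the alpha subunit of ENaC, was the gene of the 5 that passed in a comparison of the original design. Strain 13 over SS on HS gave 0.42, 0.38 and 0.33, and all 6 arrays lay between 0.22 and 0.52. The mean was 0.38 ± 0.05 (SD, n = 3, 95% interval 0.18 to 0.58, limma adjusted p = 0.0383). On HS 1 of the 5 genes passed, as did 6% of 1350 probes (3.63% higher and 2.37% lower). These were 49 higher and 32 lower probes, against 10 and 3 with arrays scaled to one spread. The call was lost without replicate 1, 2 or 3 (limma adjusted p = 0.232, 0.106 and 0.0982), although the ratio then stayed between 0.36 and 0.40. It was also lost when same-numbered arrays were solved together as sharing RNAs (0.34, limma adjusted p = 0.104), a fit that called none of the probes, and when the comparison was fitted alone (limma adjusted p = 0.0965). With the replicate number as a block 44 probes passed on HS, Scnn1a among them (limma adjusted p = 0.0424).

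On LS Scnn1a had 0.51, 0.11 and 0.00 in strain 13 over SS, a mean of 0.21 ± 0.27 (SD, n = 3, limma adjusted p = 0.222), or 0.12 without the sparse array (limma adjusted p = 0.356). Replicate 1 was high, and in replicates 2 and 3 the forward and dye-swap arrays had opposite signs. Averaged over the diets, Scnn1a was higher in strain 13, at 0.29 (95% interval 0.15 to 0.44, limma adjusted p = 0.0161). This call was lost without replicate 1 or 2 (limma adjusted p = 0.108 and 0.0517).

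On HS over LS, Scnn1a had -0.22, -0.10 and -0.18 in strain 13 and -0.01, -0.27 and -0.30 in SS. All 6 replicates lay below 0, with SS replicate 1, which rests on 1 array, nearest to it. The means were -0.17 ± 0.06 in strain 13 and -0.20 ± 0.16 in SS (SD, n = 3 each; limma adjusted p = 0.619 and 0.274). Averaged over the strains, the ratio was -0.18 (95% interval -0.32 to -0.04) and did not pass (limma adjusted p = 0.146). Ordered by mean, the Scnn1a ratios ran from the strain ratio on HS (0.38) and on LS (0.21) to the diet ratio in strain 13 (-0.17) and in SS (-0.20), and the replicates of the first 2 overlapped, as did those of the last 2.

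Counted over the 5 genes, limma called 0 in the diet comparison of strain 13, where it called 0% of 1287 probes, and an unadjusted p below 0.05 was found for 0 of the 5 genes and 9.25% of probes. In the diet comparison of SS it called 0 of 5 and 2.82% of 1310 probes, with an unadjusted p below 0.05 for 1 gene, Nr3c1, and 19.5% of probes (1.83% were called higher and 0.992% lower). In the strain comparison on LS it called 0 of 5 and 0% of 1229 probes. There an unadjusted p below 0.05 was found for 4 genes, Nr3c1 being the exception, and for 21.8% of probes. On HS it was found for 4 genes, Sgk1 being the exception, and for 23.1% of probes. Averaged over the strains, the diet comparison called 0 of 5 and 2.96% of 1249 probes, with an unadjusted p below 0.05 for 1 gene, Scnn1a, and 21.1% of probes (2.16% were called higher and 0.801% lower).

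Other genes of distal sodium transport were read from a list of 22, of which 7 were measured. The 7 include the water channel Aqp3 and Slc12a1 of the thick limb. Aqp3 and Fxyd4 are used again below as principal cell markers. On HS, 4 of the 7 were higher in strain 13 and 0 lower, while 3.63% of 1350 probes were called higher and 2.37% lower. The median log ratio of the 7 was 0.25, against 0.02 over all probes. Fxyd4, a corticosteroid-induced regulator of the sodium pump, had 0.50 ± 0.11, and Aqp3, a water channel of the collecting duct, had 0.35 ± 0.07 (limma adjusted p = 0.00944 and 0.0122). Furin, a protease that cleaves ENaC subunits, had 0.32 ± 0.14 and Atp1b1, a sodium pump subunit, had 0.25 ± 0.07 (limma adjusted p = 0.0391 and 0.0307; SD, n = 3 each). Pdpk1, the kinase that activates Sgk1, had 0.24 ± 0.13 and did not pass (limma adjusted p = 0.142). On LS none of the 7 passed and 6 lay above 0, and none passed in either diet comparison. Averaged over the diets, the same 4 genes passed, all higher, while 8.73% of 1203 probes were called higher.

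Of 18 receptor and chaperone genes, 2 were measured and none passed in any comparison. Nr3c2, the mineralocorticoid receptor, had diet ratios of -0.01 ± 0.09 in strain 13 and -0.18 ± 0.19 in SS (SD, n = 3; limma adjusted p = 0.978 and 0.218), and strain ratios of 0.09 ± 0.05 on HS and -0.07 ± 0.06 on LS. Its diet change in strain 13 minus that in SS was 0.17 (limma adjusted p = 0.311), of the same sign as that of Nr3c1. The chaperone cofactor St13 lay between -0.14 and -0.04 in all 4 comparisons.

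Of 19 genes of steroid synthesis and metabolism, 3 were measured, and none passed in a comparison of the original design. Star, which brings cholesterol into mitochondria, was higher in strain 13 averaged over the diets, at 0.28 (limma adjusted p = 0.0450), from 2 replicates per diet. Por, the reductase that serves microsomal P450 enzymes, had -0.23 ± 0.15 and Fdx1, a mitochondrial electron carrier, had 0.06 ± 0.22 for HS over LS in SS (limma adjusted p = 0.216 and 0.720). In strain 13 Por had -0.075 ± 0.172 and Fdx1 -0.275 ± 0.085 (limma adjusted p = 0.831 and 0.417).

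Of 26 genes known as corticosteroid targets, 7 to 9 were tested per comparison. In strain 13 Mt2A, a metallothionein induced by glucocorticoids, had 0.22 ± 0.13 for HS over LS (limma adjusted p = 0.480). In SS it was higher on HS, at 0.47 ± 0.13 (SD, n = 3, limma adjusted p = 0.0162). It was 1 of 8 list genes called there, while 1.83% of 1310 probes were called higher in SS. Anxa1, a glucocorticoid-induced mediator of inflammation, was lower in strain 13 averaged over the diets, at -0.42 (limma adjusted p = 0.0128). It was 1 of 7 list genes called in that comparison, where 6.32% of 1203 probes were called lower, and 2 of the 7 lay above 0. The medians of this list for strain 13 over SS were -0.17 on HS and -0.14 on LS, against 0.02 over all probes on both diets. For HS over LS its medians lay above 0, at 0.19 in strain 13 and 0.10 in SS, against 0.01 and -0.01 over all probes. Of 9 renin-angiotensin genes, Agt alone was measured, and it did not pass, with diet ratios of -0.29 ± 0.17 in strain 13 and -0.21 ± 0.27 in SS.

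**Figure D4:**
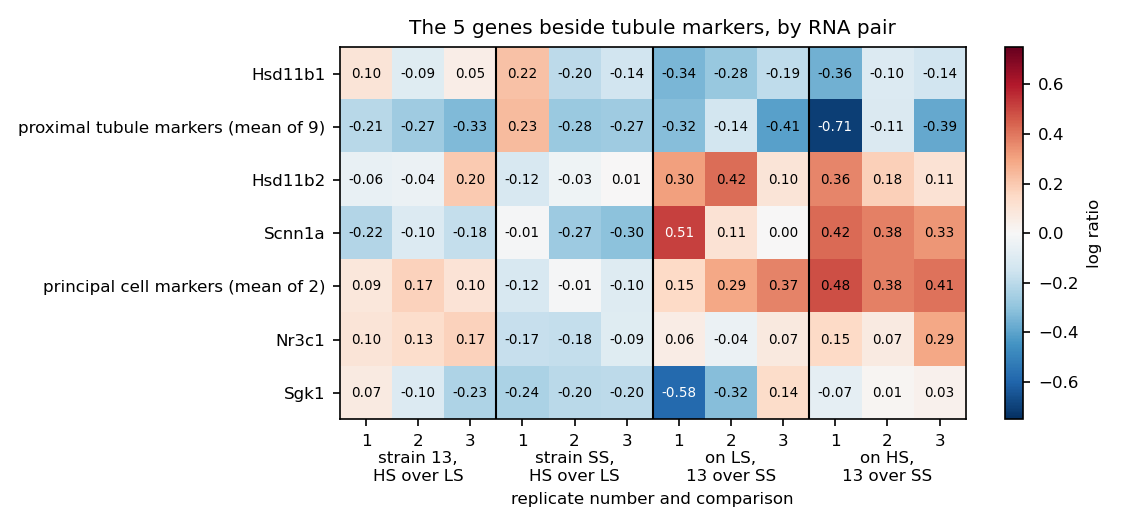
Log ratio (colour and number) of the 5 genes and of the mean of 9 proximal tubule and 2 principal cell markers (rows) in each of the 12 RNA pairs (columns, 3 replicates per comparison). Principal cell markers, Hsd11b2 and Scnn1a were at or above 0 in all 6 strain pairs, where Hsd11b1 and the proximal tubule markers were below 0.

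Tubule markers are given beside the strain ratios. The mean of 9 proximal tubule markers lay between -0.71 and -0.11 in strain 13 over SS on HS and between -0.41 and -0.14 on LS, as Hsd11b1 lay below 0. On HS 2 of 9 proximal tubule markers were lower by limma and 0 higher, while 2.37% of 1350 probes were called lower and 3.63% higher. The 2 were Gatm at -1.02 ± 0.55 and Cyp2e1 at -0.67 ± 0.39 (limma adjusted p = 0.0236 and 0.0281). On LS none of 10 passed, nor did any of the 1229 probes. Aqp1 lay above 0 on both diets (0.06 on HS and 0.07 on LS). The mean of the 2 principal cell markers, Aqp3 and Fxyd4, lay between 0.38 and 0.48 on HS and between 0.15 and 0.37 on LS, as Hsd11b2 and Scnn1a lay at or above 0. Both passed on HS and neither on LS (limma adjusted p = 0.0904 for each on LS), and Sgk1, at -0.01 on HS and -0.26 on LS, did not share their sign. On the diet arrays the principal cell markers lay between 0.09 and 0.17 in strain 13 and between -0.12 and -0.01 in SS, the signs seen for Nr3c1. Scnn1a did not share their sign in strain 13, where it lay between -0.22 and -0.10. Hsd11b2 lay on both sides of 0 in both strains. The proximal tubule mean lay between -0.33 and -0.21 in strain 13 and between -0.28 and 0.23 in SS. Hsd11b1 lay between -0.09 and 0.10 in strain 13, on both sides of 0. In SS its replicates had the signs of the proximal tubule mean.

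The 4 thick limb and distal tubule markers had a mean between 0.16 and 0.21 in strain 13 over SS on HS and between -0.05 and 0.10 on LS. For HS over LS it lay between -0.030 and -0.00375 in strain 13 and between -0.17 and -0.10 in SS. In SS, Egf, Umod and Slc12a1 had -0.31, -0.25 and -0.23, while Pvalb went the other way, at 0.21, and none passed. In strain 13 over SS on HS 1 of the 4, Egf, was higher (0.29, limma adjusted p = 0.0434), while 3.63% of 1350 probes were called higher. Of the stromal and muscle markers, 4 of 8 were measured, and their mean lay between 0.30 and 0.81 for HS over LS in SS and between -0.55 and -0.18 for strain 13 over SS on HS. In that SS diet comparison 3 of the 4 were higher by limma, while 1.83% of 1310 probes were called higher. On HS the endothelial marker Kdr was higher in strain 13, at 0.32 ± 0.12, and the leukocyte marker Lyz2 lower, at -1.51 ± 0.83, while Cd53, also of leukocytes, had -0.03 ± 0.09 (limma adjusted p = 0.0241, 0.0321 and 0.880; SD, n = 3). The part of these markers in the ratios of the 5 genes was not tested. In whole-tissue RNA, fewer cells of a type and less RNA per cell cannot be told apart.

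Across the 12 RNA pairs, Pearson correlations with the marker means were 0.67 for Hsd11b1 with the proximal tubule, and 0.69 for Scnn1a, 0.69 for Nr3c1 and 0.64 for Hsd11b2 with principal cells. Sgk1 had 0.41 with principal cells. Other marker lists had correlations of similar or larger size. The thick limb and distal tubule mean had 0.74 with Nr3c1, 0.65 with Scnn1a, 0.54 with Sgk1 and 0.53 with Hsd11b2. The stromal and muscle mean had -0.76 with Scnn1a and -0.66 with Nr3c1. Among the 5 genes, Hsd11b2 and Scnn1a had 0.66, Hsd11b1 and Scnn1a -0.52, and Nr3c1 and Hsd11b1 -0.14. These are descriptions, since the pairs come from 4 comparisons of the same 4 kinds of RNA.

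The genes most like each of the 5 were sought among 862 probes with a value in all 12 RNA pairs, by Pearson correlation. For Hsd11b1 they were Slc2a2, a glucose transporter (0.86), Cycs, cytochrome c (0.85), and St6gal1, a sialyltransferase (0.84). For Hsd11b2 they were Prf1, perforin (0.84), Scaf1 (0.81) and Eif2b4, a translation initiation factor subunit (0.81). For Nr3c1 they were Pcsk6, a proprotein convertase (0.91), Gstm2, a glutathione transferase (0.89), and Rab28, a small GTPase (0.86). For Sgk1 they were Aldh3a2, an aldehyde dehydrogenase, and Atp1b3, a sodium pump subunit (0.83 each), and Slc12a1, the sodium cotransporter of the thick limb (0.83). For Scnn1a they were Umod, which encodes uromodulin of the thick limb (0.92), Il15, a cytokine (0.90), and Gorasp1, a Golgi protein (0.88). None of the 5 genes was among the 3 nearest of another.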

How the data were processed

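The authors deposited 1 table of log ratios, per channel pair of 24 two-colour arrays. The base of the log ratio, background correction, spot filters and normalization are not stated there or in the labels. Array means lay within 0.0049 of 0 and medians within 0.04 of 0, and the deposited values were used without further normalization. Arrays held 726 to 1402 values (median 1202.5), and their number limits the precision, as intensities are not used here. Probe names came from the platform annotation, updated through the RefSeq table of GRCr8: of the probes with values, 1311 were named by 1 updated symbol and 5 by the platform's, while 22 had several symbols and 223 had none.

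Both arrays of a replicate were averaged, giving 12 RNA pairs. This takes the dye-swap ratios as already turned to the direction of the forward arrays, which the labels do not state. The diet change between strains from diet arrays and from strain arrays correlated at 0.77 across 548 probes with the orientations summed. With the orientations subtracted it was 0.22. With lmFit and eBayes of limma 3.58.1 (R 4.3.3), 4 group means were fitted and each tested against 0 (two-sided), with Benjamini-Hochberg adjustment at 0.05 over all probes with a value in at least 2 of 3 replicates. The diet change in strain 13 minus that in SS was a contrast of the same fit, and its 2 sources, diet and strain arrays, may share RNAs, which the fit ignores. Averages over both diets or both strains were added after seeing the data. The 5 genes, the pathway and marker lists and the tests were chosen with earlier results of these data known. Named genes are the 5 genes, the 3 most like each, and list genes that passed or had the lowest p. The fits were tested on simulated data. Alternatives covered replicates, dye orientation, centring, scale, missing values, 2 doubtful arrays, the replicate block and shared RNAs. Same-numbered deviations from the group means correlated across probes at 0.21, 0.15 and 0.25 between the 2 diet comparisons, which were taken as paired by number, and at -0.67, -0.59 and -0.29 between the SS diet and HS strain comparisons. The other 4 pairs of comparisons had mixed signs or values near 0 (-0.32 to 0.43). Titles give the same RNA names across comparisons only for SS in replicate 3. The title of 1 array names strain 13 at its start and SS in its channels, and it was placed by its channels.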

Additional observations from a re-analysis of the deposited data

Results flagged for a closer look

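Of 28 sets of arrays or replicates examined, 2 held a value far from the others, and chance marks about 1 in 20 such sets. Both concern the forward array of replicate 1 in the strain comparison on LS, which held 726 values, while the next fewest among the 6 arrays of that comparison was 1099. Its values had an SD of 0.474, while the next widest of these 6 was 0.318. Over all 24 arrays the next fewest was 943 values and the next widest SD 0.446. Without the sparse array Hsd11b1 on LS had a log ratio of -0.52 in strain 13 over SS (limma adjusted p = 0.102), against -0.27 with it.

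Nr3c1 was marked because its diet change differed in sign between the strains, above 0 in all 3 replicates of strain 13 and below 0 in all 3 of SS. The tested difference was 0.21 (limma adjusted p = 0.119), which did not pass the threshold. Over its alternatives this difference ranged between 0.10 and 0.29, with adjusted p between 0.0780 and 0.631.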

How the results depend on the processing

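Of the alternatives for the 5 genes, 420 kept direction and side of the threshold, 33 turned sign, 17 lost a call and 5 gained one; causes were not tested. Every turned value had failed the test. Counts of probes passing depended strongly on the setting. Without replicate 1, 2 or 3 they ran from 0 to 0 (strain 13 diet), 0 to 57 (SS diet, 37 with all), 0 to 1 (strain on LS, 0), 0 to 19 (strain on HS, 81), 0 to 10 (diet change between strains, 5), 8 to 93 (strain averaged over diets, 181) and 0 to 96 (diet averaged over strains, 37). In the same order, with averages last where they moved, forward arrays alone gave 15, 118, 70, 127, 13 and, for the diet average, 199. Dye-swap arrays alone gave 3, 62, 51, 411, 12, 375 and 142. Arrays scaled to one spread gave 23 on LS, 13 on HS and 0 for the diet change between strains. Fitting a comparison alone gave 0 for SS diet and for strain on HS, and solving shared RNAs together gave 0 for these and for the diet change between strains. Without the array of conflicting title, SS diet had 60 and the diet change between strains 12, which had 2 without the sparse array and 17 with all 3 replicates required. With the replicate block, strain on HS had 44 and the diet change between strains 8, and the block changed no call of the 5 genes. The diet change between strains was not fitted alone, and the averages were not solved together.

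Scnn1a on HS passed in 7 of 14 alternatives (adjusted p 0.0209 to 0.232), and was 0.28 on dye-swap arrays (0.0587), 0.35 when scaled (0.0522), 0.38 fitted alone (0.0965) and 0.34 solved together (0.104). On dye-swap arrays the strain ratios averaged over diets of Hsd11b2 (0.14) and Scnn1a (0.19) also lost their calls, at adjusted p = 0.156 and 0.0686.

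Turned values on forward arrays (diet average meaning HS over LS averaged over strains) were, for Hsd11b1, 0.11 (SS diet), 0.16 (strain on LS), -0.17 (diet change between strains) and 0.12 (diet average); for Hsd11b2, 0.083 (SS diet), -0.027 (diet change between strains) and 0.10 (diet average); for Nr3c1 on HS -0.02 and for Sgk1 on HS 0.18. On dye-swap arrays they were -0.08 for Hsd11b1 and -0.053 for Hsd11b2 (strain 13 diet) and 0.12 for Nr3c1 (diet average). Without the array of conflicting title, Hsd11b1 had 0.012 (SS diet) and 0.015 (diet average), and Hsd11b2 -0.0050 (diet change between strains) and 0.0092 (diet average). Solved together, Hsd11b2 had -0.0021 (strain 13 diet) and Nr3c1 -0.0063 (strain on LS). Scaled, Sgk1 on HS had 0.021 and the Nr3c1 diet average 0.0088. Leaving out 1 replicate, Hsd11b1 ran from -0.02 to 0.0725 (strain 13 diet), -0.17 to 0.0375 (SS diet) and -0.095 to 0.055 (diet average). Hsd11b2 ran from -0.05 to 0.075 (strain 13 diet), -0.0325 to 0.0825 (diet change between strains) and -0.0625 to 0.0312 (diet average). The Nr3c1 diet average ran from -0.0312 to 0.0088 and Sgk1 on HS from -0.025 to 0.0225.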
